A study of Homo sapiens with 2 samples.

Results

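The genes described here are the 63 protein-coding genes on the long arm of chromosome 11, bands q14 to q22, that had reads enough to be compared between parental and CARM1 KO ovarian cancer cells. They lie within chr11:77899858-108093365 (GRCh37, 30.2 Mb) and each had at least 50 reads in both libraries together. The window holds 116 protein-coding genes of the annotation, of which 76 reached 50 reads. The selection leaves out a fixed set of well-studied genes of the region, 13 of which had 50 or more reads, and 30 further genes fell under the minimum, 20 with 1 to 49 reads and 10 with none in either library. Among all protein-coding genes of the genome, 12522 had at least 50 reads. The window was chosen on this very contrast of CARM1 KO with parental cells, so all fold changes of the members are given as a description and none was tested.

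A1847 is a human epithelial ovarian cancer cell line with high CARM1 expression. RNA from 1 culture labelled CARM1 wild type, the parental control, and from 1 labelled CARM1 knockout was sequenced, as part of a search for why cells with CARM1 are selectively sensitive to inhibitors of the histone methyltransferase EZH2. The knockout cells are a single clone made with a lentiviral CRISPR vector, whereas no cloning is described for the parental cells, and both were grown in RPMI medium with serum. There was 1 library of each group, so no difference below has a replicate check, and a difference between these cultures cannot be told apart from an effect of the knockout.

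CARM1 is an enzyme that methylates arginine residues of histones and of other chromatin proteins and acts as a coactivator of transcription. A chromosome segment is not a pathway. The genes of 11q14-q22 serve unrelated functions, from splicing and clathrin-mediated endocytosis to cilia and the lysosome, and what they have in common is their place on the same DNA molecule. DNA copy number and histone marks of the segment were not analysed here.

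Sequencing gave 30741953 counted reads for parental and 32300391 for CARM1 KO cells. CARM1 itself had 975 reads in the parental and 380 in the KO library, 2.63-fold lower (2.33 to 2.97). Intervals in parentheses after a fold are exact 95% Clopper-Pearson intervals, which cover counting error only. The epithelial keratins KRT7, KRT8 and KRT18 had 4417, 17600 and 21154 reads in parental and 26653, 70370 and 51223 in CARM1 KO cells. EPCAM had 249 and 848 reads, KRT19 45 and 0, and CDH1 3 and 53. The ovarian carcinoma genes PAX8 and MSLN had 311 and 201 reads in parental and 1149 and 1188 in CARM1 KO cells, while WT1 had 8 and 1 and MUC16 had 0 and 1. Of the stromal, leukocyte and endothelial genes, COL1A1 had 131 and 537 reads, LUM 61 and 1, DCN 24 and 0, PTPRC 6 and 0, and CD3E and CDH5 had 0 in both. These 3 keratins, EPCAM, PAX8 and MSLN were thus higher in the library in which most members were higher, and their part in the result was not tested.

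Most genes of the segment were higher in CARM1 KO cells. Summed over the 63 members, parental cells had 118577 reads and CARM1 KO cells 197471, which is 0.386% and 0.611% of each library. After scaling for library size and composition this was a 1.63-fold higher level (1.61 to 1.64), beside 1.05-fold for all protein-coding genes with at least 50 reads. The median member had a log2 fold change of 0.84, a fold of 1.79, with quartiles at 0.45 and 1.35. The median over all 12522 genes was 0.03. In total, 54 members were above 0, 85.7% of the 63 beside 51.4% of all 12522 genes, and 9 were below. The counting interval lay wholly above 1 for 53 members and wholly below 1 for 9, and only that of GUCY1A2, with 83 reads in the parental and 86 in the KO library, held 1. The like share over all genes is not given here, so these interval counts do not set the members apart from other genes. In bulk RNA, a change in the share of cells that express a gene and a change in RNA per cell cannot be told apart.

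Past a fold of 1.5, 44 members were higher in CARM1 KO cells, 69.8% of the 63 beside 27.4% of all 12522 genes, and 5 were lower, 7.94% beside 23.2%. The remaining 14 members changed by less in either direction. Past a fold of 3, the fold threshold of the study's methods, 10 members were higher, 15.9% of the 63 beside 10.9% of all genes, and 3 were lower, 4.76% beside 7.29%. Most members differed moderately and in one direction: 41 of the 63 had a log2 fold change between 0.3 and 1.6. Among all 12522 genes, percentiles 62.5 and 89.0 stood at 0.30 and 1.57. Just inside the read minimum stood VSTM5 with 16 and 43 reads, DLG2 with 32 and 59, and GUCY1A2. Just outside stood CCDC81 with 16 and 31 reads, DEUP1 with 0 and 46, and FAT3 with 18 and 24.

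**Figure D1:**
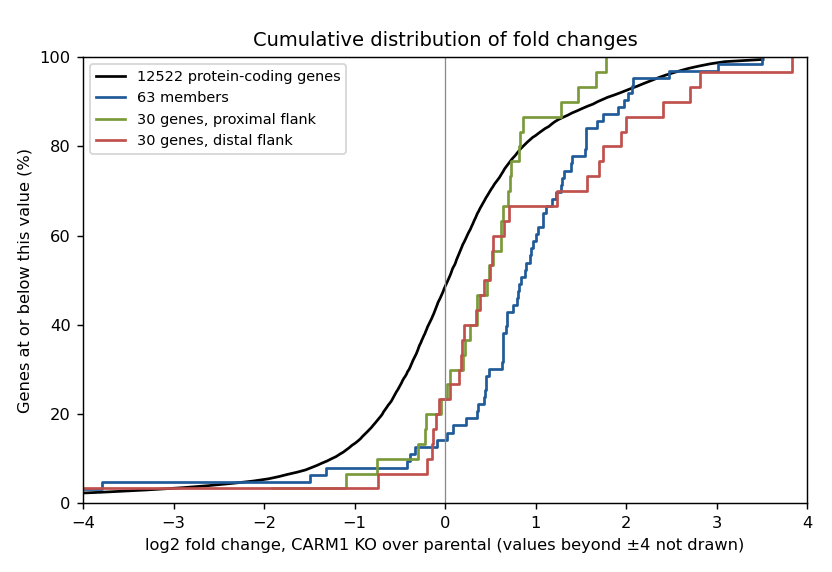
Cumulative share of genes (%) by log2 fold change, CARM1 KO over parental, for the 63 members, the 30 expressed protein-coding genes on either side of the segment and all 12522 protein-coding genes with at least 50 reads. The curve of the members lies to the right of the curve of all genes over the middle of the range. Medians were 0.84 and 0.03, and those of the flanks lay between them at 0.48 and 0.46. In the upper range the telomeric flank passed the members, with an upper quartile of 1.67 beside 1.35.

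The genes next to the segment were also higher, by less at the median and in summed reads. The 30 expressed protein-coding genes on the centromeric side (chr11:74041361-77899672) had a median log2 fold change of 0.48. Past 1.5-fold, 13 were higher and 3 lower, 43.3% and 10.0%, beside 27.4% and 23.2% of all 12522 genes. The 30 on the telomeric side (chr11:108093771-113644457) had a median of 0.46, with 12 higher and 2 lower, 40.0% and 6.67%. Past 3-fold, 8 of them were higher, 26.7%, which is more than the 15.9% of the members and 10.9% of all genes. Their upper quartile was 1.67, beside 1.35 for the members. In each flank 76.7% of the genes were above 0, beside 85.7% of the members and 51.4% of all genes. Summed reads were 1.17-fold higher on the centromeric side (1.16 to 1.19) and 1.33-fold higher on the telomeric side (1.32 to 1.35). Farther away, the 224 expressed genes of the short arm had a median of 0.03 and the 88 beyond the telomeric flank a median of -0.28. Long-arm genes between the centromere and the centromeric flank were not summarised as a whole. With flanks of 60 genes, the members' median exceeded that of the centromeric flank by 0.44, beside 0.37 with 30. For the telomeric flank it did so by 0.71, beside 0.38 with 30. The limits of the window therefore do not mark a place where the fold changes returned at once to the level of the short arm.

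Along the segment the members fall into 5 clusters parted by more than 1 Mb without a member. The first, USP35 to NARS2, holds 3 genes with a median log2 fold change of 1.09. The second, PRCP to CHORDC1, holds 22 genes with a median of 0.80, 14 of them higher and 2 lower past 1.5-fold. The third, SLC36A4 to JRKL, holds 20 genes with a median of 0.89, of which 17 were higher and 1 lower. The next, ARHGAP42 to DYNC2H1, holds 6 genes with a median of 0.82, and the last, MSANTD4 to NPAT, holds 12 with a median of 0.66. The gaps between them measure 4.25, 2.92, 4.32 and 2.52 Mb, and the clusters on either side of each gap had medians of the same sign. The gene that opens the segment, the deubiquitinase USP35, had 75 and 152 reads, 1.98-fold higher (1.49 to 2.65). The gene that ends it, NPAT, a coactivator of histone gene transcription, had 1590 and 3261 reads, 2.0-fold higher (1.89 to 2.13).

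**Figure D2:**
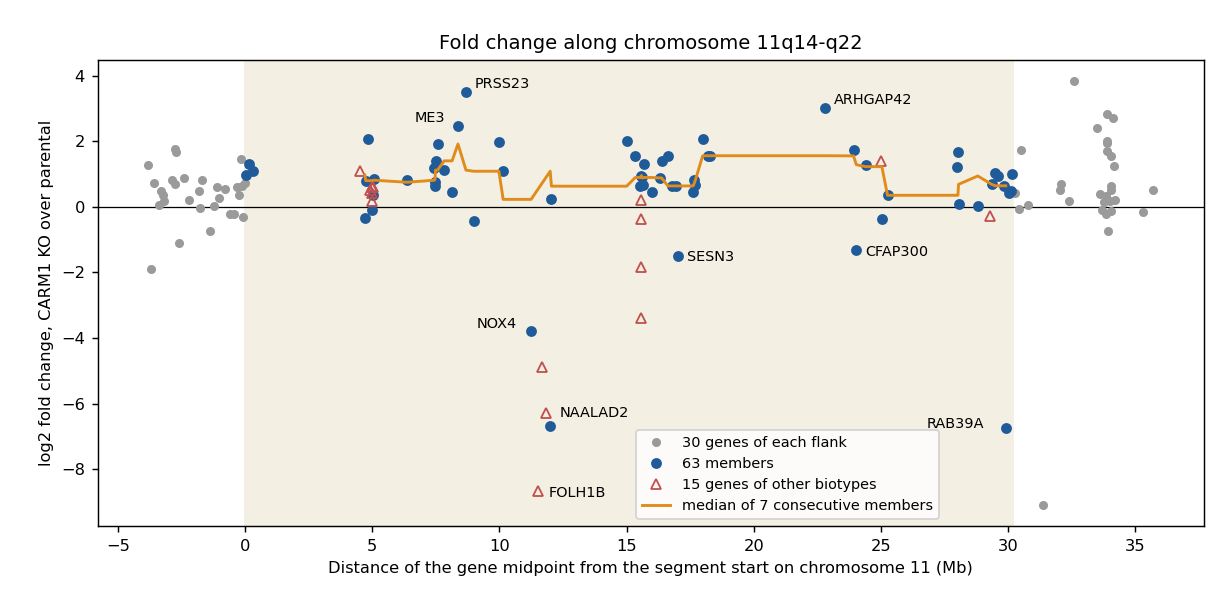
Log2 fold change, CARM1 KO over parental, of each gene (y axis) against the distance of its midpoint from the segment start on chromosome 11 (Mb), with the segment shaded and the median of 7 consecutive members as a line. The line stays above 0 in all 57 windows, between 0.23 and 1.91, while NOX4, NAALAD2 and RAB39A stand far below it at -3.79, -6.69 and -6.75.

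Shift edges were sought by placing 1, 2 or 3 edges so that the log2 fold changes deviated least from the median of their piece, with at least 5 genes in a piece. An edge number was to be described if it lowered the summed absolute deviation by at least 10% from that with 1 edge fewer. With these settings no edge number met this among the 63 members. The best single edge lay before CFAP300 and lowered the deviation by 1.48%, with a median of 0.89 over the 47 genes before it and 0.56 over the 16 from it onwards. The best pair, before MAML2 and before CFAP300, set apart 5 genes with a median of 1.74 and lowered the deviation by 7.80% in all, and 3 edges lowered it by 9.5%. Over windows of 7 consecutive members the median was above 0 in 57 of 57 windows and above a fold of 1.5 in 52. The lowest window ran from PRSS23 to CHORDC1, with 0.23, and the highest from SYTL2 to RAB38, with 1.91.

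Other settings placed edges, and not all in the same place. Among the 63 members with at least 3 genes in a piece, a pair before NOX4 and before SLC36A4 lowered the deviation by 10.7% in all, of which the step from 1 edge to 2 gave 9.33%, under the limit. Its pieces had medians of 1.03, -3.79 and 0.85, and the middle piece was NOX4, NAALAD2 and CHORDC1. With squared deviations, the pair lay before TMEM135 and before CHORDC1, with 16.1% lower deviation in all, 10.3% over a single edge, and a median of -0.42 over the 5 members between. With a minimum of 10 reads, over 75 protein-coding genes, the pair lay before GRM5 and before CHORDC1, with 18.8% lower deviation and medians of 1.03, -3.57 and 0.85, and TRIM49 and TRIM49D2 between the edges passed this minimum through the parental library alone. Over 78 genes, the members and the 15 pseudogenes and non-coding RNAs with at least 50 reads, a pair before NOX4 and before CHORDC1 lowered the deviation by 30.2%, with medians of 0.83, -6.28 and 0.68. The 3 genes this adds between the edges, FOLH1B, TRIM53AP and TRIM53BP, passed the read minimum through the parental library alone, so the minimum fixed their direction and they are no support for the edges. Each of these middle pieces holds the members NOX4 and NAALAD2.

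From the start of NOX4 to the end of NAALAD2 (chr11:89057521-89926062, 868542 bp), few reads were left in CARM1 KO cells. The annotation has 45 genes there, of which 19 had a read. Together these had 4620 reads in the parental and 82 in the KO library, 57.7-fold lower. The limits were set by NOX4 and NAALAD2 after their values were seen, so this sum is a description and mostly restates these 2 members. The other 17 genes with a read had 1110 and 27 reads, of which FOLH1B held 805 and 0. All 8 genes with at least 10 reads were lower, but this count is no support for a fall of the stretch. FOLH1B, TRIM53AP, TRIM53BP, TRIM49 and TRIM49D2 passed that minimum through the parental library alone, so it fixed their direction. NOX4 and NAALAD2 set the limits of the stretch, and the counting interval of TRIM64EP held 1. The 11 genes with 1 to 9 reads held 36 and 15 reads. NOX4, an NADPH oxidase that produces hydrogen peroxide, had 377 reads in the parental and 26 in the KO library, 14.8-fold lower (9.97 to 23). NAALAD2, a cell-surface peptidase of the glutamate carboxypeptidase family, had 3133 and 29 reads, 111-fold lower (76.9 to 165). NAALAD2 was thus an abundant transcript in parental cells, at 14 RPKM (reads per kb of exon, scaled to library size), and came to 0.127 in CARM1 KO cells.

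Between them lie FOLH1B, a transcribed pseudogene related to the folate hydrolase FOLH1, and copies of the TRIM49, TRIM53 and TRIM64 genes. FOLH1B had 805 reads in the parental and 0 in the KO library. TRIM53AP had 152 and 0 reads, and TRIM53BP 56 and 0. TRIM49 had 33 and 1 reads, and TRIM64EP, with 13 and 10, kept most of its count. Such copies share sequence, and how their reads were divided between them is uncertain. FOLH1 on the short arm, which is nearly identical to FOLH1B, had 23 reads in the parental and 45 in the KO library.

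The nearest members on both sides were higher. CTSC, the lysosomal dipeptidyl peptidase cathepsin C, which lies 965 kb before NOX4, had 3798 reads in the parental and 8250 in the KO library, 2.12-fold higher (2.04 to 2.21). GRM5, a glutamate receptor gene 258 kb before NOX4 and under the read minimum, had 21 and 15 reads. CHORDC1, an HSP90 co-chaperone, lies 7.53 kb beyond NAALAD2 and had 7726 and 9259 reads, 1.17-fold higher (1.14 to 1.21). NAALAD2 lies on the plus and CHORDC1 on the minus strand, so the 7.53 kb separates the ends of these genes and not their starts. Reads per gene therefore do not resolve where the values turned on either side.

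**Figure D3:**
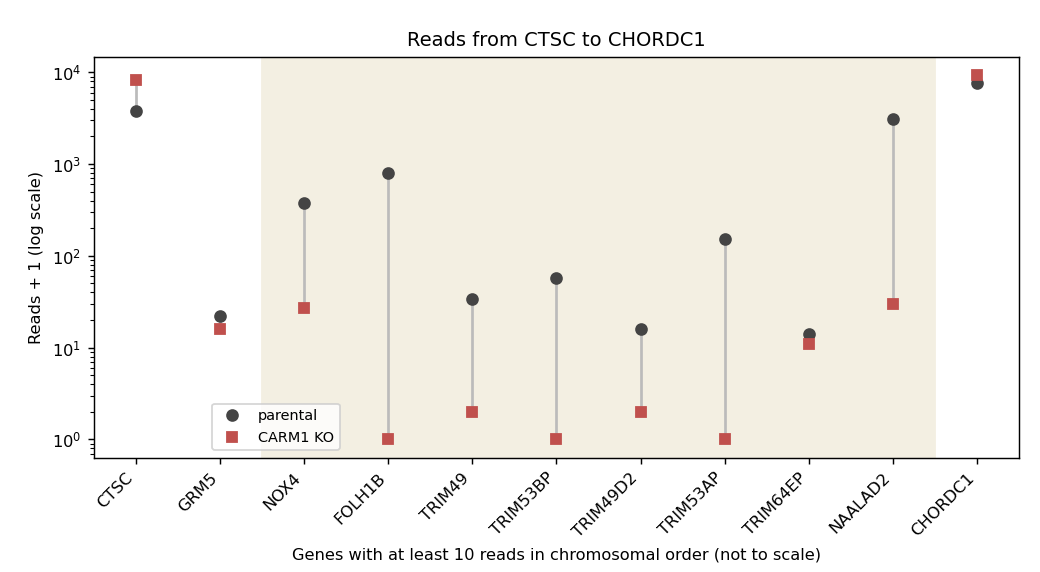
Reads plus 1 (log scale) in parental and CARM1 KO cells for the genes with at least 10 reads from CTSC to CHORDC1, in chromosomal order and not to scale, with the stretch from NOX4 to NAALAD2 shaded. NAALAD2 goes from 3133 to 29 reads and FOLH1B from 805 to 0, while CTSC and CHORDC1 outside the shading are higher in CARM1 KO cells.

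The stretches upstream of these members are shown because NAALAD2 and its neighbour CHORDC1 differed in direction and because RAB39A, described next, was lower between members that were higher. Each is the 250 bases before the gene's start in RefSeq, 5′ to 3′ on the gene's strand, with every CG dinucleotide in capitals. CG reads the same on both strands.
NOX4 promoter, GRCh38.p14 chr11:89491376-89491625, minus strand: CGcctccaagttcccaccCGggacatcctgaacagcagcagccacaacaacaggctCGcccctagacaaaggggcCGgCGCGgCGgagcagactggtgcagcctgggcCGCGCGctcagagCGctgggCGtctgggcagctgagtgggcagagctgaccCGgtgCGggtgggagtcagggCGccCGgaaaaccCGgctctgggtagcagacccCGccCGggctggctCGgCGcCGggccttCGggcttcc
NAALAD2 promoter, GRCh38.p14 chr11:90134413-90134662, plus strand: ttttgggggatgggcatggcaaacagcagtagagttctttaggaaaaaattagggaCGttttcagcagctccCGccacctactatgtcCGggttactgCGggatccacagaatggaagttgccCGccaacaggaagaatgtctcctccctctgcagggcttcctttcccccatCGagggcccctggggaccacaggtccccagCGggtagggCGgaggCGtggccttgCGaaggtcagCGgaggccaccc
CHORDC1 promoter, GRCh38.p14 chr11:90223050-90223299, minus strand: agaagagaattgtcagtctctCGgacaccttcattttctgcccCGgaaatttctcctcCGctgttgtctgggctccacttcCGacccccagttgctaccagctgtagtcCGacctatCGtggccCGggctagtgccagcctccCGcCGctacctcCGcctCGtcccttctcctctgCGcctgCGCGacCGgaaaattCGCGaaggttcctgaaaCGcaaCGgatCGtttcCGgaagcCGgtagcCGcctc
RAB39A promoter, GRCh38.p14 chr11:107928198-107928447, plus strand: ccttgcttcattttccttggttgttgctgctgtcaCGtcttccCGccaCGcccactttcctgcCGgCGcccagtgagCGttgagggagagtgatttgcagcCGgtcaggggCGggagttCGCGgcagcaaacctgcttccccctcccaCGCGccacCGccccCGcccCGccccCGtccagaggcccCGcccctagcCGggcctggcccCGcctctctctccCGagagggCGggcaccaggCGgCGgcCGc
They hold 23, 11, 23 and 24 CG dinucleotides, and G and C make up 72.0%, 59.6%, 60.4% and 71.6% of their bases. NAALAD2 thus had the fewest CG of the 4, and NOX4 and RAB39A, lower in CARM1 KO cells, held about as many as CHORDC1, which was higher. Of the 59 members with a promoter in the RefSeq table, 52 held at least 10 CG, 88.1%, beside 86.4% of 10197 expressed protein-coding genes and 51.9% of all 27305 promoters of the same length. The median member promoter held 20 and the median expressed gene 21. Over the 59 members the CG count and the log2 fold change had a Pearson's r of 0.04 and a Spearman's rank correlation of -0.04, given as a description.

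The study's CARM1 guide, printed to show what was searched for, reads agcacggaaaatctacgcgg. Within the segment of the GRCh37 genome, no place with an NGG PAM matched it with 4 mismatches or fewer. A single place matched with 5 mismatches, 3.37 Mb from the NOX4 to NAALAD2 stretch and in no protein-coding gene. This describes letters alone and says nothing of cutting.

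RAB39A was lower between neighbours that were higher. This small GTPase of endosomal traffic had 736 reads in the parental and 5 in the KO library, 151-fold lower (64.3 to 466), and its level went from 12.5 to 0.0832 RPKM. SLC35F2, a membrane transporter on its centromeric side, had 2487 and 3973 reads, 1.56-fold higher (1.48 to 1.64). CUL5, a scaffold of cullin-RING ubiquitin ligases that begins 45.4 kb beyond it, had 4377 and 6026 reads, 1.34-fold higher (1.29 to 1.40). RAB39A was the only member of its cluster below 0, and the edge search, which asks for at least 5 genes in a piece, cannot set a single gene apart.

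Milder falls stood elsewhere along the segment. SESN3, a sestrin that restrains mTORC1 signalling, had 903 and 327 reads, 2.83-fold lower (2.49 to 3.22). CFAP300, a factor for the assembly of dynein arms in motile cilia, had 330 and 134 reads, 2.52-fold lower (2.06 to 3.11). The other 4 members below 0 differed by under 1.5-fold: TMEM135, with 1442 and 1104 reads, was 1.34-fold lower (1.24 to 1.45). DCUN1D5, a cofactor of cullin neddylation, had 4675 and 3669 reads, 1.30-fold lower (1.25 to 1.36). The lysosomal carboxypeptidase PRCP had 1852 and 1508 reads, 1.26-fold lower (1.17 to 1.35), and the mRNA 3′ end processing factor PCF11 had 3725 and 3592, 1.06-fold lower (1.01 to 1.11).

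The 8 largest rises ran from 3.84-fold to 11.4-fold and were found in the clusters that begin with PRCP, SLC36A4 and ARHGAP42. PRSS23, a secreted serine protease, had 238 reads in the parental and 2784 in the KO library, 11.4-fold higher (10.0 to 13.1). ARHGAP42, a GTPase-activating protein, had 138 and 1161 reads, 8.22-fold higher (6.88 to 9.88). ME3, the mitochondrial NADP-dependent malic enzyme, had 93 and 537 reads, 5.64-fold higher (4.52 to 7.11). PRSS23 and ME3 lie in the cluster that begins with PRCP, and ARHGAP42 opens its own. MAML2, a Mastermind coactivator of Notch, had 493 and 2139 reads, 4.24-fold higher (3.84 to 4.68). RAB30, a small GTPase of the Golgi, had 321 and 1381 reads, 4.20-fold higher (3.72 to 4.76). SLC36A4, an amino acid transporter, had 365 and 1522 reads, 4.07-fold higher (3.63 to 4.58). The next in size were again genes of organelle traffic. RAB38, a small GTPase of lysosome-related organelles, had 54 and 223 reads, 4.03-fold higher (2.98 to 5.54). SYTL2, an effector of RAB27, had 83 and 326 reads, 3.84-fold higher (3.01 to 4.94). CEP126, with 55 and 193 reads, and KBTBD3, with 67 and 224, were the remaining members higher past 3-fold, at 3.43 and 3.27.

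The 10 members with the most reads per kb, SLC35F2, CUL5 and CHORDC1 among them, were all higher. TMEM123, a cell-surface glycoprotein, had 7958 reads in the parental and 19863 in the KO library, 2.44-fold higher (2.38 to 2.50), and its level went from 57.5 to 140 RPKM. PICALM, a clathrin assembly protein, had 7822 and 17392 reads, 2.17-fold higher (2.11 to 2.23). TAF1D, a subunit of the RNA polymerase I selectivity factor, had 8871 and 16886 reads, 1.86-fold higher (1.81 to 1.91). These were the 3 highest levels among the 63 members in CARM1 KO cells, at 140, 86.0 and 66.4. The splicing factor CWC15 had 3382 and 5384 reads, 1.55-fold higher (1.49 to 1.62). TMEM126B, an assembly factor of respiratory complex I, had 1271 and 2958 reads, 2.27-fold higher (2.13 to 2.43). CEP57, a centrosomal protein, had 3915 and 7062 reads, 1.76-fold higher (1.69 to 1.83). At the other end, AASDHPPT, the phosphopantetheinyl transferase, had 4106 and 4477 reads, 1.06-fold higher (1.02 to 1.11), which is close to the median of all genes.

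**Figure D4:**
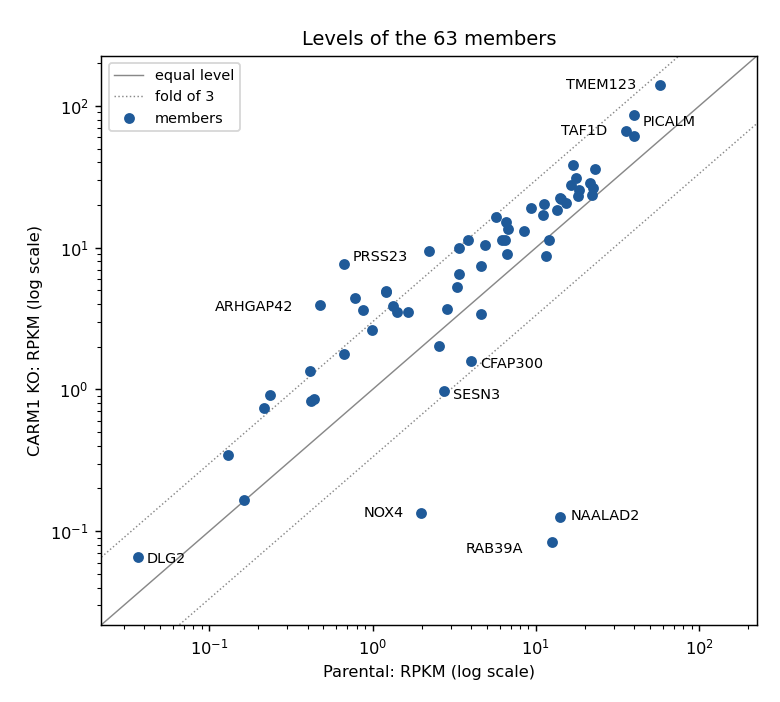
Level of each of the 63 members in CARM1 KO (y axis) against parental cells (x axis), in RPKM, on log scales, with lines for equal level and for a fold of 3. Most points lie just above the line of equal level, TMEM123 is the highest with 57.5 and 140, and RAB39A, NAALAD2 and NOX4 lie far below the line.

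The spread of the members differed with their level. The 21 members with the lowest levels had a median log2 fold change of 1.31 and an interquartile range of 0.93, with 7 members higher and 1 lower past 3-fold. The middle 21 had a median of 0.88 and a range of 1.09, with 3 higher and 2 lower. The 21 with the highest levels had a median of 0.64 and an interquartile range of 0.40, none was past 3-fold, and their values ran from -0.09 to 1.29. All protein-coding genes at the same levels had interquartile ranges of 1.84 in the low, 1.01 in the middle and 0.84 in the high class, with medians of 0.12, -0.04 and 0.01. The members were thus less spread than genes of like level in the low and high classes, and slightly more in the middle one. Across the 63 members the log2 level and the log2 fold change had a Pearson's r of -0.05 and a Spearman's rank correlation of -0.26, and log10 exon length gave 0.08 and -0.06. All points of these correlations share the same 2 libraries, and both level and fold change come from the same counts.

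By role, members above a fold of 1.5 were found in every list. Of all 63 members 69.8% were higher and 7.94% lower past 1.5-fold, beside 27.4% and 23.2% of all 12522 genes. The lists are small and none was tested against the other members, so the counts below are no result about a role. Of 9 members listed under transcription and pre-mRNA processing, 7 were higher and none lower past 1.5-fold, with a median log2 fold change of 0.67. TAF1D and CWC15 were given above, and PCF11 was the one just below 0. Of 6 members whose proteins work in mitochondria, 5 were higher and none lower, with a median of 0.97. ACAT1, the mitochondrial acetoacetyl-CoA thiolase, had 3343 and 4799 reads, 1.40-fold higher (1.34 to 1.47). CCDC90B, a protein of the inner mitochondrial membrane, had 2298 and 4223 reads, 1.79-fold higher (1.71 to 1.89). Mitochondrial genes thus ran from ACAT1 at a log2 fold change of 0.49 to ME3 at 2.47.

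Of 7 members listed under vesicle traffic and endocytosis, 5 were higher and 1, RAB39A, was lower past 1.5-fold, with a median of 1.29. That list also holds TMEM123 and TMEM135, whose proteins are a cell-surface glycoprotein and a peroxisomal membrane protein. Of 5 listed under ubiquitin and neddylation, 3 were higher and none lower, with a median of 0.88. Of those 3, ALKBH8 modifies transfer RNA and ANKRD49 is not known as a ubiquitin enzyme, so KBTBD3, a BTB-Kelch protein, was the one that fits the name of the list. Of 6 members listed under secreted and lysosomal enzymes, 4 were higher and 1, NAALAD2, was lower, with a median of 0.86. NAALAD2, a cell-surface peptidase, does not match the name of this list. CTSC and PRSS23 were among those higher, and PRCP stood below 0.

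Of 7 members listed under centrosome, cilium and cell division, 4 were higher and 1, CFAP300, was lower, with a median of 0.63. DYNC2H1, the motor heavy chain of retrograde transport in cilia, had 8512 and 11121 reads, 1.28-fold higher (1.24 to 1.31). The 2 cilium genes named here thus differed in direction. Of 3 receptors, channels and transporters, SLC36A4 and SLC35F2 were higher past 1.5-fold, and the channel protein PANX1, with 1348 and 1881 reads, was 1.36-fold higher (1.27 to 1.46). DLG2, a synaptic scaffold, was the one expressed member of the adhesion and neuronal list, at 1.80-fold higher (1.15 to 2.86). Of 11 signalling adaptors and enzymes, 6 were higher and 2, NOX4 and SESN3, were lower, with a median of 0.68. Of the 8 members in no list, 7 were higher and none lower, with a median of 1.35.

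**Figure D5:**
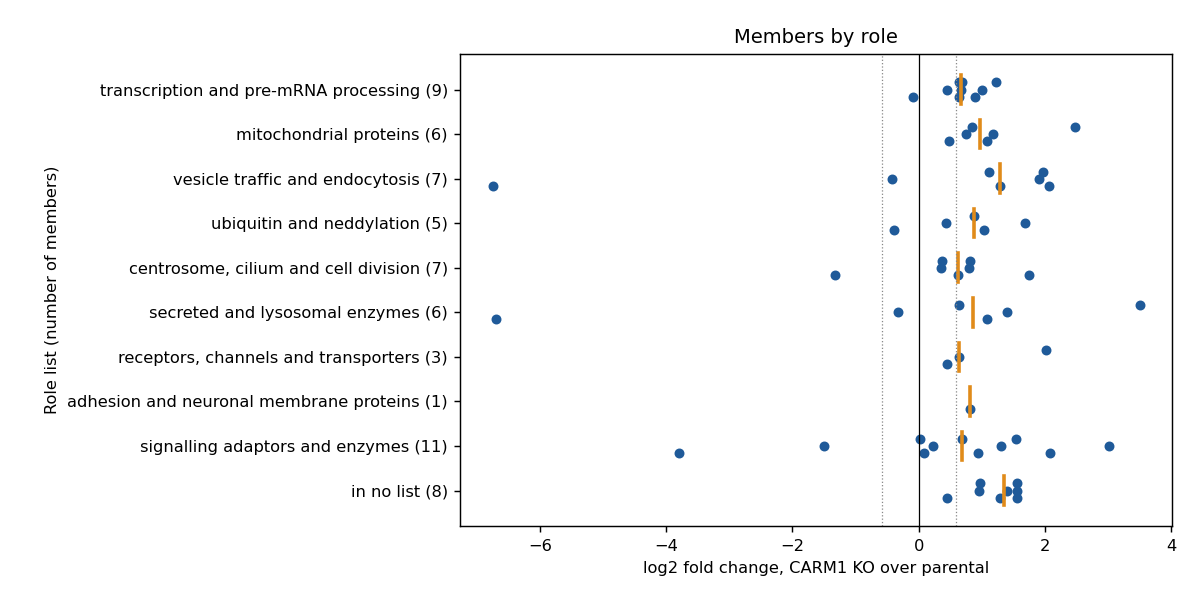
Log2 fold change, CARM1 KO over parental, of each member (points) in its role list, with the median of the list as a bar and dotted lines at a fold of 1.5 in either direction; points are set apart vertically only to be seen. Medians run from 0.63 to 1.35, and the points far to the left are RAB39A, NAALAD2 and NOX4.

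Neighbours that start back to back were compared too. In 4 pairs of members the canonical transcripts start within 1000 bp of each other on opposite strands, a rule chosen after the values were seen. CCDC82 and JRKL start 101 bp apart, with 905 and 2723 reads and 399 and 1207 reads, and log2 fold changes of 1.55 and 1.56. TAF1D and C11orf54 start 177 bp apart, with log2 fold changes of 0.89 and 0.95. FAM76B and CEP57 start 716 bp apart, with 0.45 and 0.82. KBTBD3 and AASDHPPT start 315 bp apart, yet their values were 1.68 and 0.09. The median difference within the 4 pairs was 0.21 on the log2 scale, beside 0.75 over the 58 other pairs of neighbouring members. SLC35F2 and RAB39A count among the 58, although their annotated limits lie only 154 bp apart, back to back on opposite strands. The rule left this pair out because their canonical transcripts start 69.7 kb apart. Their log2 fold changes were 0.64 and -6.75, and this difference, 7.39, was the largest of the 58. The strand setting of the counting is not given in the sources used here, so reads of overlapping partners may have been counted together. Leaving out the 16 members that overlap another gene with at least 50 reads, the remaining 47 had a median log2 fold change of 1.00.

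Genes of other biotypes in the segment moved less evenly. Of 294 annotated, 15 had at least 50 reads, 3 of them in the NOX4 to NAALAD2 stretch. Of the 12 elsewhere, 4 were higher and 2 lower past 1.5-fold, where 27.4% and 24.6% of 14175 genes of any biotype were, and their median log2 fold change was 0.30. The ribosomal protein pseudogene RPS28P7 had 909 and 2003 reads, 2.15-fold higher (1.99 to 2.33). Within TAF1D lie 3 small nucleolar RNA genes that went the other way from it. SNORA8 had 347 reads in the parental and 273 in the KO library, SNORA18 had 431 and 123, and SNORA40 had 215 and 19. Without these the remaining 9 had a median of 0.50, and 8 of them were above 0.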

How the data were processed

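RNA of 1 parental and 1 CARM1 KO culture of A1847 was sequenced as 75 bp paired-end reads from ScriptSeq libraries. Alignment to hg19 was done by the authors with bowtie2, and RSEM (1.2.3 per the submitters' processing notes) gave the reads of each Ensembl gene, deposited as whole-number counts that were not normalized. RSEM divides reads among similar genes. The strand setting is not given in the sources used here. Of 57736 genes, 55501 were matched by identifier to GENCODE 44 lifted to GRCh37. Libraries were scaled by TMM in edgeR 4.0.16 under R 4.3.3, and log2 fold changes carry a prior count of 2. Folds and their intervals come from the scaled reads without a prior count. A level is an RPKM over merged exons and the scaled library size, computed here.

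With 1 library per group the quasi-likelihood test of edgeR and the DESeq2 test could not be fitted, so no p-value is given and calls are by fold alone. Intervals are exact binomial ones (scipy 1.17.1). The scripts were tested on simulated data. The members and the role lists were chosen with earlier results of these data known. Named members are the 8 largest rises and 8 largest falls, the 10 with the most reads per kb, the 2 with the most reads of each role list, and the first and last of the segment. All others were named after their values were seen. Alternatives were other scalings, read minimums, prior counts, flank sizes and edge settings. Promoters came from RefSeq on GRCh38.p14, with 59 of 63 members matched by symbol.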

Additional observations from a re-analysis of the deposited data

Results flagged for a closer look

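Some genes outside the 63 members carried clear signal in parental cells and are given as values for that reason. In the NOX4 to NAALAD2 stretch, FOLH1B had 805 reads in the parental and 0 in the KO library. In the same stretch TRIM53AP had 152 and 0 reads and TRIM53BP had 56 and 0. Within TAF1D, which was higher in CARM1 KO cells, SNORA18 had 431 reads in the parental and 123 in the KO library. The other small nucleolar RNA genes there were SNORA8, with 347 and 273 reads, and SNORA40, with 215 and 19. How reads of these genes were told apart from those of TAF1D is not given in the sources used here.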

How the results depend on the processing

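The number of members higher past 3-fold was 10 to 13 and past 1.5-fold 42 to 50 over the scalings, read minimums and prior counts tried. The read minimums change the set, so these counts have unlike totals: the 50 were of 75 genes with at least 10 reads, beside 44 of 63. DEUP1, with 0 and 46 reads, passed the lower minimum through the KO library alone. The median of the members minus the median of all protein-coding genes was 0.81 under all 5 scalings. A scaling shifts all log2 fold changes by nearly the same amount, so this difference could hardly change and is no check. The 1.63-fold summed difference became 1.58 with library size only and with TMM on protein-coding genes, 1.67 with DESeq2 size factors and 1.65 with upper-quartile scaling. The mean over members was a log2 fold change of 0.62 where the median was 0.84, and the median was 1.00 without the overlapping members, 0.88 outside the NOX4 to NAALAD2 stretch and 0.89 with the left-out genes put back, all 3 chosen after seeing the data. With at least 10 reads, 5 genes rather than 3 were lower past 3-fold. The genes this adds, TRIM49 and TRIM49D2, passed this minimum through the parental library alone, so the minimum fixed their direction. The members' median exceeded that of the centromeric flank by 0.37 with 30 genes, 0.49 with 15 and 0.44 with 60. For the telomeric flank the difference was 0.38 with 30 genes, 0.50 with 15, 0.71 with 60 and 0.50 with at least 200 reads.

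By the 10% limit on each added edge, the number of shift edges was 0, and 2 with at least 10 reads, with squared deviations or with other biotypes. With at least 3 genes in a piece it was 0, although 2 edges together lowered the deviation by 10.7%. The best single edge lay at 101918168, but at 88237744 with at least 10 reads, at 107661717 with at least 200 reads and with squared deviations, at 107799174 with the flanks and at 82783094 with other biotypes. Its place is thus not stable, and the cause was not tested. Of the 34 members named by the fixed rules, none changed sign or side of the fold of 3 over 204 comparisons. Members named after their values were seen, such as CCDC82 and JRKL, were not among the 34. With DESeq2 size factors 13 members rather than 10 were higher past 3-fold, so some members outside the 34 did change side. No paired analysis was possible because each group was a single library. Depth limits VSTM5, DLG2 and GUCY1A2, whose intervals are the widest relative to their folds among the higher or unmoved members.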
